A study of Mus musculus with 6 samples.

Results

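The DNA damage response and repair genes described here are 37 genes given by symbol, from the sensors of DNA breaks to the ligases that close them, and all 37 were found by symbol among the 21927 features of the deposited gene table. Of these, 36 had a mean of at least 10 normalized counts over the libraries and were tested together with the other features, 15800 in all. The 37th, Bard1, had a mean below 10. The tissue was the vermis of the cerebellum, its midline strip, taken at 8 weeks of age from LINE-1a mice and from dCas mice, their controls (n = 3 mice and 3 libraries per group), and its RNA was sequenced. In LINE-1a mice, by the series' own description, the retrotransposon LINE-1 (L1) is active. The labels give the animals by these 2 names only. The alleles behind the names, the promoter and cells that drive them, the genetic background and the sex of the animals are not stated in the labels.

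A break in both DNA strands is bound by a sensor complex, which switches on large kinases. The kinases mark the histones around the break, and the marks recruit the factors that steer the ends towards joining or towards copying from a sister chromatid. Damage to a single strand or a base is handled by separate excision pathways. L1 inserts through a nick made by its own endonuclease, and inherited loss of several human repair genes, among them ATM, APTX, XRCC1 and TDP1, causes cerebellar ataxia. The RNA level of these genes says nothing on the phosphorylation, recruitment or activity of their proteins.

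The libraries held between 23483158 (LINE-1a 2) and 33445789 (dCas 3) reads in the gene table. The sum of 4 Y-linked genes reads as female in 2 LINE-1a mice (1 and 2) and as male in LINE-1a 3 and every dCas mouse, so that group and sex are partly confounded. LINE-1a 2 stood apart from the rest. On the first principal component of the log2 values (46.6% of the variance) it lay at 56.6, and the other 5 libraries between -39.0 and 20.5. Values are normalized counts, the authors' reads per gene divided by a size factor for each library. Fold changes are on the log2(normalized count + 1) scale, LINE-1a over dCas, with the standard error (SE) and the adjusted p of limma. That scale understates the change of genes with low counts.

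None of the members passed the test. In limma 0 of 36 had a Benjamini-Hochberg adjusted p under 0.05, against 23 of all 15800 features (0.146%), and edgeR and DESeq2 also called 0 of the 36. In simulated reads limma recovered 7.46% of 1.5-fold and 37.3% of 2-fold changes, so 0 calls does not show that the members are unchanged. The median log2 fold change of the members was 0.03, with 20 above and 16 below 0, and that of all features tested was also 0.03. At an unadjusted p under 0.05 there were 3 members (8.33%), Nbn with the higher values in LINE-1a vermis, and Lig4 and Aptx with the lower. Of all features, 15.3% did so (7.94% higher and 7.35% lower). The values of 8 of the 36 tested members (22.2%) did not overlap between the groups, 3 higher in LINE-1a vermis (Nbn, Rnf8, Wrn) and 5 lower (Trp53bp1, Lig4, Parp1, Aptx, Ercc1). That share lay next to the 22.1% of all features (9.88% higher and 12.3% lower). Without LINE-1a 2, a single member was higher (Nbn) and a single member lower (Aptx) at an unadjusted p under 0.05 (5.56% of the members, against 7.41% of all features), and 27.8% of the members did not overlap, against 26.8% of all features. The limma fit was also run on the male libraries alone, LINE-1a 3 against the 3 dCas libraries. There Nbn was at 0.495, Lig4 at -0.446, Aptx at -0.414, Parp1 at -0.355 and Brca1 at -1.08. The median of the members was 0.05. That fit has 1 library on the LINE-1a side, assumed to vary like the dCas libraries.

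**Figure D1:**
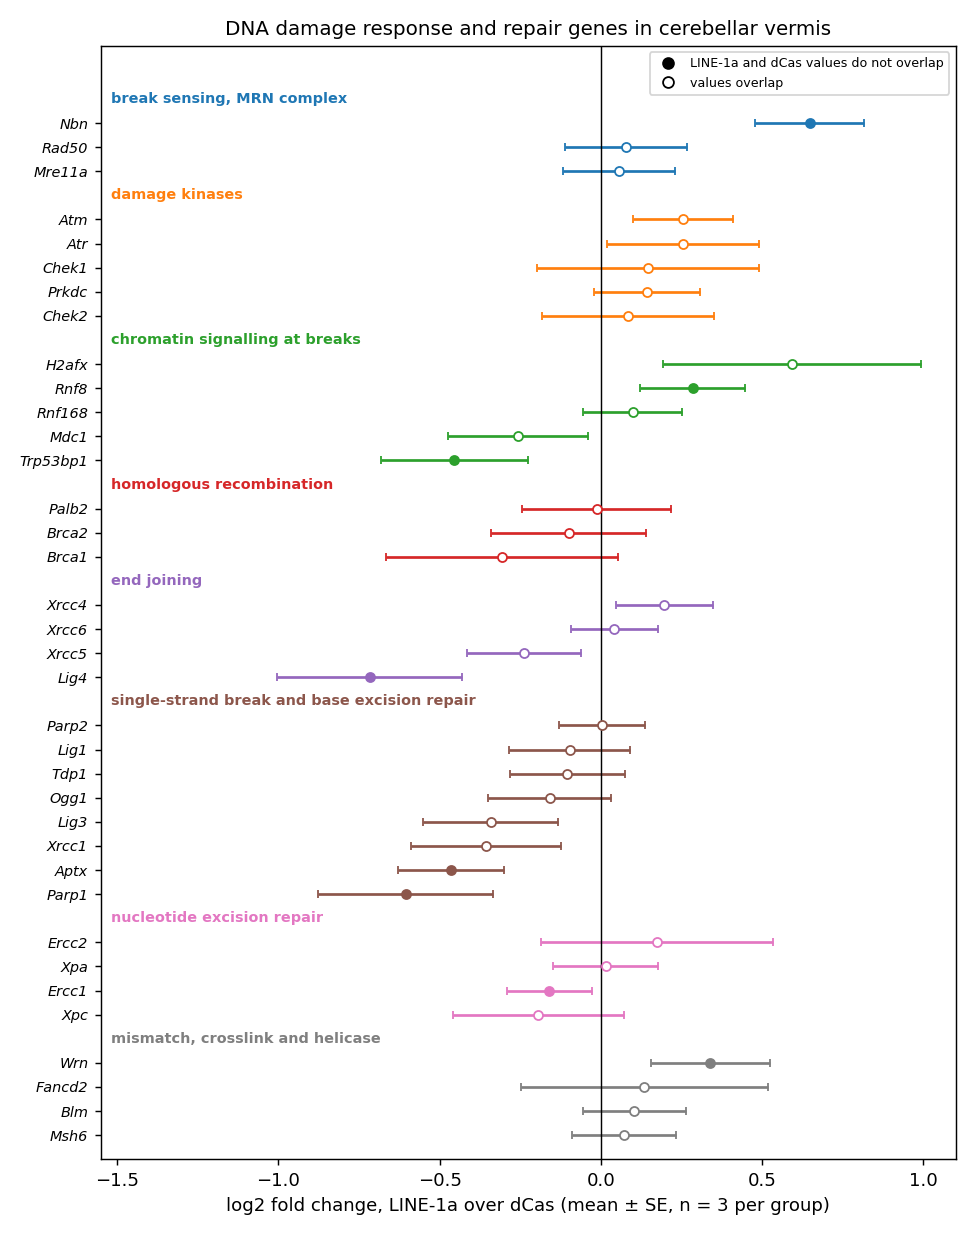
The log2 fold change (LINE-1a over dCas, mean ± SE, n = 3 per group) of the 36 tested genes, grouped by role, with filled points for the 8 genes whose values do not overlap between the groups. Nbn at 0.65 and Lig4 at -0.72 are the ends of the range, and 7 of the 8 genes of single-strand break and base excision repair lie below 0.

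Of the 37 genes, 30 have a promoter window in the RefSeq table used here (GRCm38.p6, 250 bases before to 50 after the gene start given there). H2afx, Nbn, Rad50, Prkdc, Xpc, Fancd2 and Wrn have none there. The RefSeq start lay 28534 bases from the GENCODE start for Xrcc6, 410 for Xrcc1, 407 for Chek1 and 293 for Ercc1. For the rest it lay at most 174 bases away (Bard1). The windows below belong to members whose values did not overlap between the groups: Aptx (chr4:40703145-40703444, minus strand), Lig4 (chr8:9977631-9977930, minus strand) and Parp1 (chr1:180568641-180568940, plus strand) on the lower side, and Rnf8 (chr17:29614539-29614838, plus strand) on the higher side. They are written 5′ to 3′ along the gene. Capitals mark the GC box GGGCGG, the CCAAT box, the ETS core CCGGAAGT, the NRF1 core GCATGCGC and the cAMP response element TGACGTCA, each on either strand.
Aptx: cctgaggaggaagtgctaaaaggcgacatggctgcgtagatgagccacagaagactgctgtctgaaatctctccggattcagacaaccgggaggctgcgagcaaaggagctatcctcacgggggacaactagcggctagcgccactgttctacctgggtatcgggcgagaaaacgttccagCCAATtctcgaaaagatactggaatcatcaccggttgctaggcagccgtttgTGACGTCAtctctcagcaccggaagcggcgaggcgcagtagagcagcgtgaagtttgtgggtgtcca
Lig4: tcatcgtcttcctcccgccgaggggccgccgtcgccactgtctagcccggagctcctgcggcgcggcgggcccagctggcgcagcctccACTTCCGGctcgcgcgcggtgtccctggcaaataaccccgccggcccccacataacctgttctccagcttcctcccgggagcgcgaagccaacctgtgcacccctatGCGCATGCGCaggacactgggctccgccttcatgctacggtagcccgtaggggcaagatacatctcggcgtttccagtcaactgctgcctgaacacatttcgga
Parp1: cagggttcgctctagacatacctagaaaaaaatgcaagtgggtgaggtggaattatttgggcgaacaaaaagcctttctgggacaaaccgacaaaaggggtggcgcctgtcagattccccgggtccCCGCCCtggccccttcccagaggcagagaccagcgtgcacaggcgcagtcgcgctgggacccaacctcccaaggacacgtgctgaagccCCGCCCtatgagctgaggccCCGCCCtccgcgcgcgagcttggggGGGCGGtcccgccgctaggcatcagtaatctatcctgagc
Rnf8: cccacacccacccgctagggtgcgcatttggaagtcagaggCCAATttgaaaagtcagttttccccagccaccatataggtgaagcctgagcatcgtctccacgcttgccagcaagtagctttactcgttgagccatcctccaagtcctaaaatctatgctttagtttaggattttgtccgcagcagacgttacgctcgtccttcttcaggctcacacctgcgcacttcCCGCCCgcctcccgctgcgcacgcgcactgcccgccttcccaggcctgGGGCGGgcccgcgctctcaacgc
No motif was in all 4 windows. Of the 5 members on the lower side (these 3, Trp53bp1 and Ercc1), 3 windows hold a GC box (Parp1, Trp53bp1, Ercc1) and 2 an ETS core (Lig4, Ercc1). Rnf8 holds a CCAAT box and 2 GC boxes, and Parp1 4 GC boxes and no CCAAT box. Aptx holds a CCAAT box and the cAMP response element TGACGTCA, and Lig4 an ETS core and the palindrome GCGCATGCGC, which reads as the NRF1 core on both strands. Over the 30 windows, GGGCGG was found in 66.7% (35.7% of all 32851 windows of the same length in the table), CCAAT in 53.3% (37.4%), GCATGCGC in 23.3% (2.71%), CCGGAAGT in 16.7% (3.89%) and TGACGTCA in 6.67% (1.79%). TTTCCCGC, an E2F-like motif, was in 20% (1.07%), in Brca2, Bard1, Mdc1, Chek2, Xrcc6 and Msh6. The median GC content of the members' windows was 58.7%, against 52.7% of all windows, and its part in these shares was not tested. TTTGAA, the CHR motif, was in 10% (17.9%), and both the E2F-like TTTGGCGC (0.514% of all windows) and the YY1 core AAGATGGC (2.75%) were in 0 of the 30. In the Rnf8 window TTTGAA overlaps the CCAAT box.

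The 3 subunits of the MRN complex, which binds and tethers broken ends, had log2 fold changes above 0, and none passed. Nbn codes for nibrin, the subunit that docks the complex on chromatin, and lies on chromosome 4 (GRCm38, 15957925 to 15992589). It was at 395, 457 and 362 normalized counts in the LINE-1a libraries, against 233, 281 and 259 in the dCas libraries. Every LINE-1a value lay above every dCas value, and the highest was that of LINE-1a 2. Its log2 fold change was 0.65 ± 0.17 (SE), the largest size of any higher member, with an adjusted p of 0.325 in limma. It kept its sign in all 21 other settings, with an adjusted p of 0.337 in edgeR, 0.0777 in DESeq2 and 0.0523 with array weights, and up to 0.773 over the settings. Without LINE-1a 2 it was 0.56. The nuclease Mre11a was at 768, 550.1 and 694 in LINE-1a vermis and 567, 716 and 642 in dCas vermis, which overlap (log2 fold change 0.06). Rad50, the ATPase of the complex, overlapped as well (0.08). The difference between Nbn and its partners was not tested.

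The 5 damage kinases all had log2 fold changes above 0, between 0.09 and 0.26, and none passed. Atm, the kinase that double-strand breaks activate through the MRN complex, lies on chromosome 9 (53439149 to 53536740). It was at 407, 496 and 486 normalized counts in LINE-1a vermis, against 413, 383 and 365 in dCas vermis. Only LINE-1a 1 fell inside the dCas range. This gave a log2 fold change of 0.26 ± 0.16 (SE; limma, adjusted p = 0.403). Atr, which responds to single-stranded DNA at stalled forks, was spread widely in LINE-1a vermis, at 361, 657 and 532, and lay at 502, 422 and 352 in dCas vermis (0.25). Prkdc, the catalytic subunit of the kinase of end joining, was at 0.14. The checkpoint kinases that act below them were at 0.15 (Chek1) and 0.09 (Chek2), from levels of 29.4 to 47.6 normalized counts in LINE-1a vermis for Chek1, and 22.1 to 47.8 in dCas vermis. Without LINE-1a 2, Chek1 was at -0.02 and 4 of the 5 kinases were above 0.

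The 5 genes of chromatin signalling at breaks lay on both sides of 0, 3 above and 2 below, and none passed. H2afx codes for the histone variant whose phosphorylated form marks breaks, and lies on chromosome 9 (44334694 to 44336077). It was at 44.4, 50.01 and 38.5 normalized counts in LINE-1a vermis, from 55, 62 and 51 reads. In dCas vermis it was at 16.2, 28.0 and 52.7, from 21, 38 and 79 reads. The groups overlap, because dCas 3 was the highest of the 6 libraries and dCas 1 the lowest. A log2 fold change of 0.59 ± 0.40 (SE; limma, adjusted p = 0.441) resulted, and it was 1.01 without dCas 3 and 0.19 without dCas 1. Whether reads were counted by strand is not stated, and a miRNA gene on the opposite strand covers 10.2% of the exonic length of H2afx.

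The ubiquitin ligase Rnf8 was at 352, 390.4 and 411.5 (LINE-1a) and 279, 335 and 334 (dCas), which do not overlap, with a log2 fold change of 0.28 ± 0.16 (SE; limma, adjusted p = 0.377). Gm28043, a gene on the same strand, shares 26.3% of its exonic length, so the value of Rnf8 is uncertain. Rnf168, the ligase that acts after it, was at 0.10. Trp53bp1, which favours end joining over resection, was at 2765, 1474 and 2594 in LINE-1a vermis, against 3086, 2948 and 2988 in dCas vermis. The 3 dCas values lay within a narrow range and LINE-1a 2 far below it. Its log2 fold change was -0.45 ± 0.23 (limma, adjusted p = 0.344) and -0.17 without LINE-1a 2. Tubgcp4, on the opposite strand, covers 22.1% of its exons. Mdc1, the adaptor that reads the phosphorylated histone, was at -0.26, and -0.02 without LINE-1a 2.

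**Figure D2:**
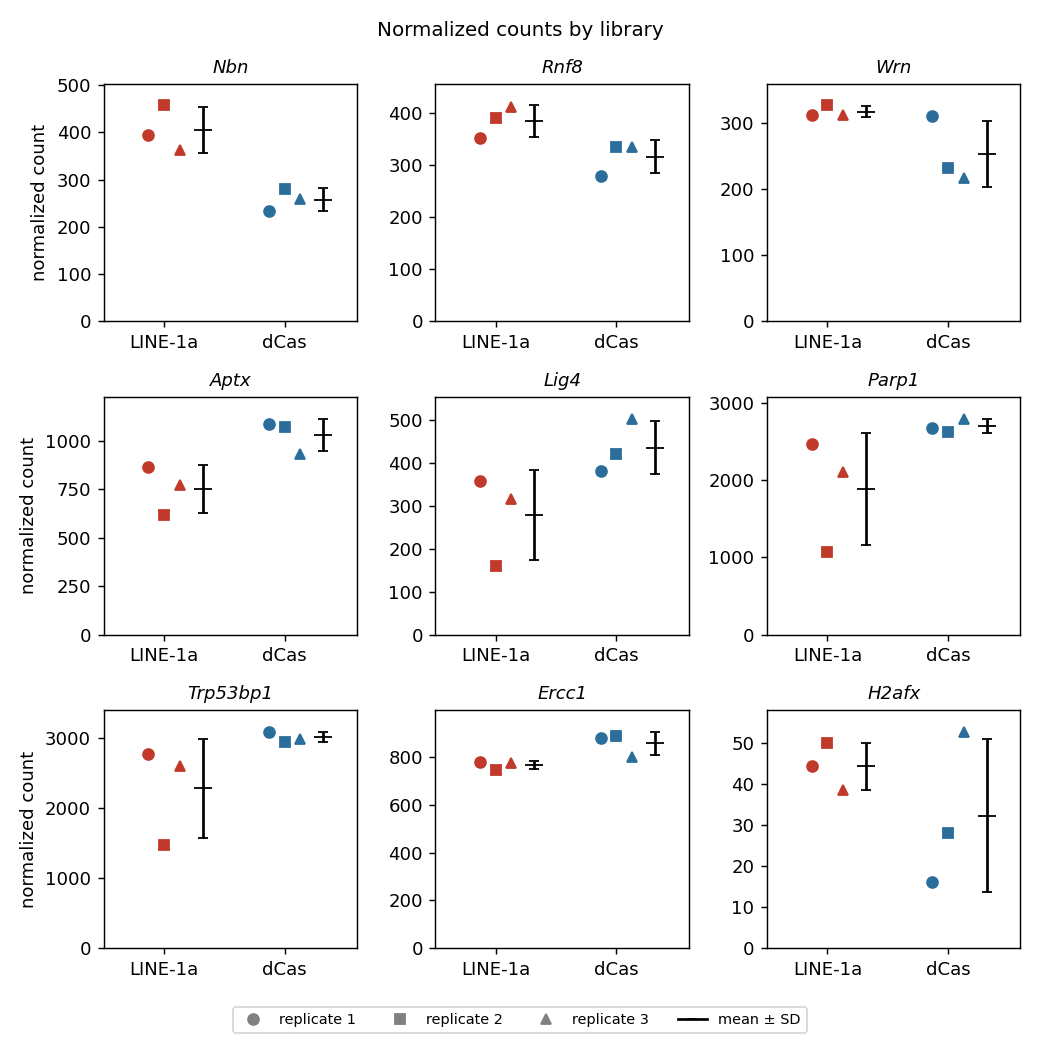
Normalized counts of 9 genes in each library (points, by replicate number) with the mean ± SD of each group (n = 3), LINE-1a left of dCas. The groups do not overlap for any of the 9 but H2afx, and LINE-1a 2 (square) lies well below LINE-1a 1 and LINE-1a 3 for Lig4, Parp1 and Trp53bp1.

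The genes of homologous recombination were at low levels, and the 3 that were tested had log2 fold changes below 0, none past the threshold. Brca1 was at 67.8, 50.8 and 25.7 normalized counts in LINE-1a vermis and 58.6, 64.0 and 45.3 in dCas vermis (log2 fold change -0.31). Its partner in a ubiquitin ligase, Bard1, gave 14, 17 and 13 reads in LINE-1a vermis, against 8, 0 and 8 reads in dCas vermis, at a mean below the level for testing. Every LINE-1a value of Bard1 lay above every dCas value, and it is left out of the counts of tested members. Palb2, which links Brca1 to Brca2, was at -0.01. Brca2, a large mediator of this pathway, was at -0.10, with its highest value, 301, in LINE-1a 2 and its lowest, 162, in LINE-1a 1. Without LINE-1a 2 the 3 tested genes were all below 0, with a median of -0.35.

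Of the end joining genes, the pair that forms the Ku heterodimer was at -0.24 (Xrcc5) and 0.04 (Xrcc6), and the ligase and its scaffold lay on opposite sides of 0. Lig4, the ligase of this pathway, lies on chromosome 8 (9969049 to 9977686). It was at 358.5, 160 and 317 normalized counts in LINE-1a vermis, against 382, 420.2 and 503.5 in dCas vermis. The groups do not overlap, but LINE-1a 1 lay close below dCas 1. The log2 fold change of Lig4 was -0.72 ± 0.29 (SE; limma, adjusted p = 0.325), the largest size among the members. Without LINE-1a 2, which was at -1.07 relative to the other 2 LINE-1a libraries on the log2 scale, it was -0.36. Xrcc4, the scaffold that holds Lig4, was at 0.20, with values of 703 to 767 in LINE-1a vermis and 559 to 726 in dCas vermis.

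The 8 genes of single-strand break and base excision repair had the lowest median of the role groups, -0.25, with 7 of 8 below 0. In limma 0 of 8 passed. Of all 15800 features, 7435 were below 0. Of 16 further tested genes of these pathways, 11 were above 0 and 5 below, with a median of 0.06. Aptx codes for aprataxin, which clears abortive ligation products, and lies on chromosome 4 (40682382 to 40703194). It was at 867, 618 and 772 normalized counts in LINE-1a vermis, against 1085, 1074 and 934 in dCas vermis. The groups do not overlap. The log2 fold change of Aptx was -0.46 ± 0.16 (SE), and its adjusted p was 0.325 in limma, 0.344 in edgeR and 0.236 in DESeq2. It kept its sign in the 21 other settings and was -0.33 without LINE-1a 2. With array weights, which ran from 0.345 (LINE-1a 2) to 3.77 (dCas 2), Aptx was the only member to pass (adjusted p = 0.0466, and up to 0.773 over the settings), in a fit that called 1220 features.

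Parp1, the main sensor of single-strand breaks, lies on chromosome 1 (180568924 to 180601254). It was at 2467, 1075 and 2112 normalized counts in LINE-1a vermis, against 2680, 2628 and 2798 in dCas vermis. LINE-1a 2 was at less than any other library, and LINE-1a 1 close below the dCas values. The log2 fold change was -0.60 ± 0.27 (SE; limma, adjusted p = 0.325), and -0.24 without LINE-1a 2. Parp2, a related polymerase, overlapped between the groups. It was at 1045, 1011 and 1040 in LINE-1a vermis, against 1121, 1013 and 958 in dCas vermis, with a log2 fold change of 0.00 ± 0.13 (SE; limma, adjusted p = 0.987). The difference between Parp1 and Parp2 was not tested.

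Xrcc1, the scaffold that gathers these enzymes, was at 1101, 619 and 1163 in LINE-1a vermis and 1090, 1161 and 1311 in dCas vermis (-0.35). Its partner Lig3 was at -0.34, with Rffl on the opposite strand over 27.9% of its exons. Both came close to 0 without LINE-1a 2, Xrcc1 at -0.06 and Lig3 at -0.10. Lig1, the ligase of replication and long-patch repair, was at -0.10, and Tdp1, which frees the ends of DNA from trapped topoisomerase, also at -0.10. Ogg1, the glycosylase for oxidised guanine, was at -0.16. Without LINE-1a 2 the median of the 8 genes was -0.08, with 5 below 0, and the lowest median was that of homologous recombination (-0.35).

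Nucleotide excision repair, which cuts out bulky lesions, had 2 of its 4 genes above 0 and 2 below. Ercc1, a subunit of the nuclease that cuts 5′ of the lesion, was at 780, 749 and 775 in LINE-1a vermis, against 883, 890.5 and 803 in dCas vermis. The groups do not overlap, by a small margin, and the log2 fold change was -0.16 ± 0.13 (SE; limma, adjusted p = 0.526), or -0.04 with equal library totals. Xpa, which checks the damage, was at 0.02. Xpc, which finds it, was at 588, 343 and 509 in LINE-1a vermis and 393, 530 and 736 in dCas vermis (-0.19). The helicase Ercc2 was at 346, 273 and 350.3 in LINE-1a vermis and 154, 297 and 500.2 in dCas vermis (0.18). For both, the dCas libraries spanned more than the LINE-1a libraries, with dCas 1 the lowest and dCas 3 the highest for Ercc2. A pair of genes on the opposite strand cover 18.1% and 16.4% of the exons of Ercc2.

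The mismatch, crosslink and helicase genes were all above 0, and none passed. Wrn, the helicase lost in human Werner syndrome, was at 312, 327 and 313 in LINE-1a vermis, against 311, 233 and 217 in dCas vermis. The lowest LINE-1a value lay next to dCas 1. Wrn had a log2 fold change of 0.34 ± 0.18 (SE; limma, adjusted p = 0.360). Msh6, which recognises mismatched bases, was at 0.07, Blm, the helicase of Bloom syndrome, at 0.10, and Fancd2, a target of the Fanconi anaemia ligase, at 0.14, from 15 to 26 reads in LINE-1a vermis and 15 to 25 in dCas vermis.

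Levels of different genes were compared per kb of exon, as the mean normalized count per kb over the 6 libraries. Xrcc6 was the highest member, at 662 ± 7.41 in LINE-1a vermis and 645 ± 53.4 in dCas vermis (SD, n = 3 each). Its 6 normalized counts were 2220 (LINE-1a 1), 2171 (LINE-1a 2), 2203 (LINE-1a 3), 2218 (dCas 1), 2265 (dCas 2) and 1937 (dCas 3), with a log2 fold change of 0.04 ± 0.13 (limma, adjusted p = 0.886). Parp1 came next, at 487 ± 187 per kb in LINE-1a vermis and 698 ± 22.5 in dCas vermis, and Parp2 after it, at 545 ± 9.83 in LINE-1a vermis and 544 ± 44.0 in dCas vermis. That order is of means over all 6 libraries. In LINE-1a vermis Parp2 and Xpa lay above Parp1, and in dCas vermis Parp1 lay above Xrcc6. Xpa (485.5 over all libraries), Ercc1 (454), Xrcc4 (446) and Xrcc1 (424) followed, in an order that differs between the groups. At the low end lay genes that dividing cells use to copy DNA and to recombine it: Palb2 (24.3), Brca2 (20.8), Chek1 (9.42), Brca1 (7.92), Fancd2 (2.94) and Bard1 (1.37). Markers of dividing cells were low as well, with a summed normalized count over 8 genes (Mki67, Top2a and others) of 80.8 to 164 in LINE-1a vermis and 108 to 117 in dCas vermis, and none of the 8 at 0 in every library. H2afx ranked 31 of 37, at 27.7 per kb.

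**Figure D3:**
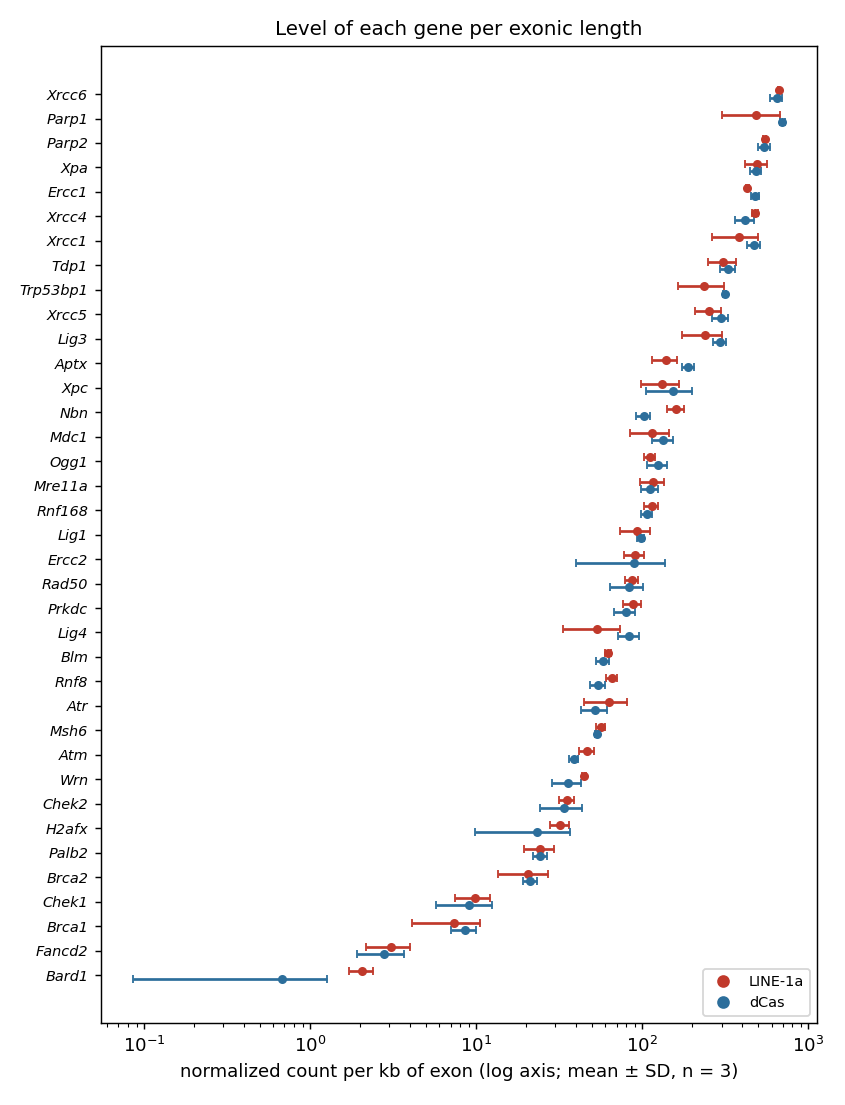
Level of each of the 37 genes in normalized counts per kb of exon, on a log axis (mean ± SD, n = 3 per group; LINE-1a above dCas), from Xrcc6 at the top to Bard1 at the bottom. The 2 groups lie close together for most genes, and their order of levels runs from 654 to 1.37 over all libraries.

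LINE-1a 2 lay far from the other LINE-1a libraries for several members, in shares near those of all features. It was the lowest of the 6 libraries for 13 of 36 members (36.1%, against 28.6% of all features tested) and the highest for 10 (27.8%, against 31.7%). Set against the mean of LINE-1a 1 and LINE-1a 3 on the log2 scale, it was lower by more than 0.5 for 7 members (19.4%, against 16.2% of all features). These were Parp1 (-1.09), Lig4 (-1.07), Xrcc1 (-0.87), Trp53bp1 (-0.86), Lig3 (-0.73), Mdc1 (-0.71) and Xpc (-0.67). It was higher by more than 0.5 for Brca2 (0.76), Atr (0.58), Chek1 (0.51) and Fancd2 (0.50), 11.1% of the members against 12% of all features.

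The same library was the lowest for glia. The 5 oligodendrocyte markers Mbp, Mog, Mag, Mobp and Cnp summed to 198900, 83040 and 128000 normalized counts in LINE-1a 1, 2 and 3, against 178600 to 236800 in dCas vermis, with all 5 log2 fold changes below 0 and a median of -0.64. The 6 markers of astrocytes and Bergmann glia summed to 85160, 39540 and 64830 in LINE-1a 1, 2 and 3, against 80720 to 96030 in dCas vermis, all 6 below 0 with a median of -0.52. None of these 11 markers was at 0 or past the threshold. In bulk RNA, fewer cells of a type and less RNA per cell cannot be told apart, and the part of either in the values of Parp1, Lig4, Xrcc1 and Trp53bp1 was not tested. Choroid plexus markers (Ttr, Folr1, Kl, Clic6, Otx2, Aqp1) summed to 1708, 35300 and 105400 in LINE-1a 1, 2 and 3, and to 83900, 1387 and 1274 in dCas 1, 2 and 3. They are high in libraries of both groups. Granule cell and Purkinje cell markers, which define this tissue, were present in every library, at sums of 79000 to 91980 and 68920 to 85810 in LINE-1a vermis, and of 88430 to 107900 and 92590 to 116200 in dCas vermis. The Purkinje cell sums do not overlap, and 4 of the 6 markers were below 0, with a median log2 fold change of -0.39. Of the other lists, 5 of 6 endothelial and mural markers (median -0.52) and 5 of 5 interneuron markers (-0.11) were below 0. So were 4 of 5 markers of oligodendrocyte precursors (-0.57) and 5 of 5 red blood cell markers (-0.18). Above 0 were 4 of 6 microglial markers (median 0.13), 3 of 4 meningeal markers (0.15) and 4 of 6 tested markers of dividing cells (0.25). Limma called 0 in each of these lists. The part of these cell types in the members' values was not tested.

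Among the 36 members, the deviation of a library from the gene's mean ran with the GC content of the transcript in LINE-1a 2 (Spearman's rho -0.47) and dCas 3 (0.52), more than over all 15243 features with a GC value (-0.05 and 0.19). In LINE-1a 1, LINE-1a 3 and dCas 2 rho was 0.20, 0.08 and 0.19 among the members, against 0.01, 0.02 and 0.16 over all features. In dCas 1 it was weaker among the members (-0.15) than over all features (-0.26). The members with the most GC in their longest transcript were H2afx (62.3%), Xrcc1 (59.3%), Ercc2 (59.1%) and Ercc1 (57.6%), and Atr had the least (40.8%). The log2 fold change had a rho of -0.34 with GC content among the members, against -0.04 over all 15243 features. These correlations are across genes that share their libraries and are given as a description. Removing the trend of the fold changes in exonic length and GC content, fitted over all features, left the median of the members at 0.04. That trend had an R squared of 0.029, so its removal could move little. The part of GC content in the members' values was not tested.

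**Figure D4:**
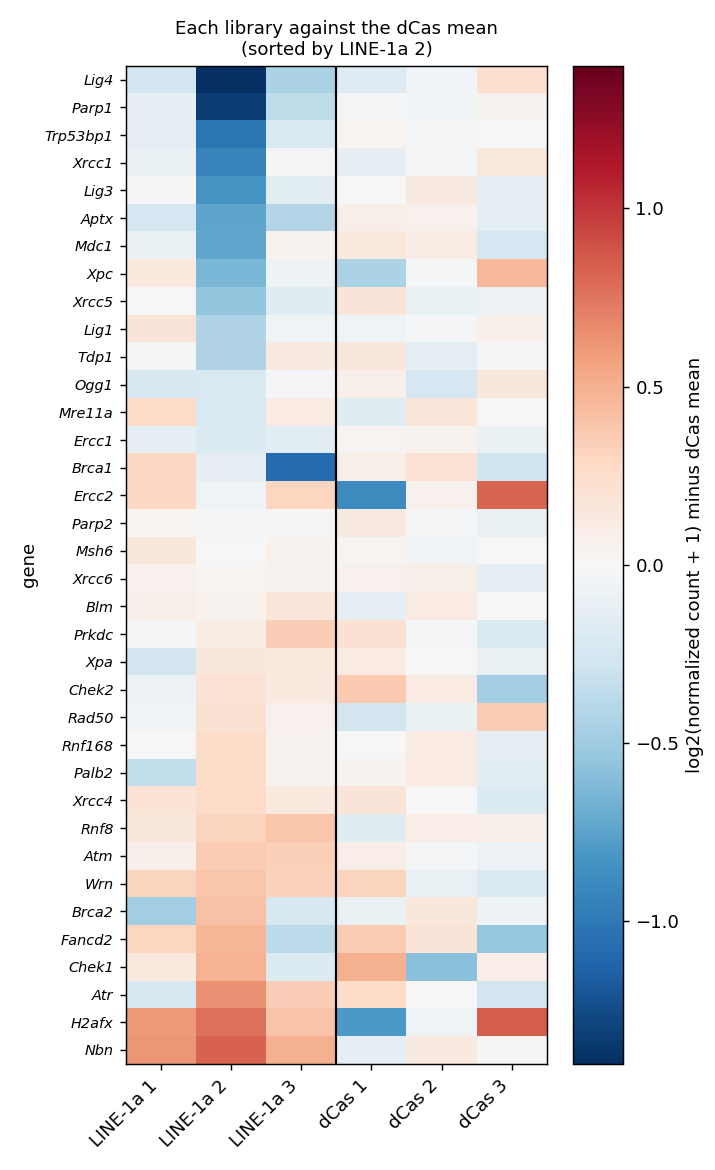
Difference of each library from the dCas mean of the same gene, on the log2(normalized count + 1) scale, for the 36 tested genes sorted by LINE-1a 2, with LINE-1a libraries left of the line and dCas libraries right of it. LINE-1a 2 is deep blue (lower) for Lig4, Parp1, Trp53bp1 and Xrcc1 and red (higher) for Nbn and H2afx, and dCas 1 and dCas 3 differ from each other for Ercc2 and H2afx.

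Beyond the members, 157 further genes of the same pathways were read from lists, of which 154 were tested. Limma called 0 of them, and so did edgeR and DESeq2, while limma with array weights called 7 (Bbc3, Rev3l, Mdm2, Slx4, Polq, Fen1 and Poll), in the fit with 1220 calls over all features. At an unadjusted p under 0.05 limma had 7 higher and 10 lower, 17 in all (11%, against 15.3% of all features), edgeR 18 (2289 of all 15800 features) and DESeq2 14 (2516 of all). The values of 29 genes (18.8%, against 22.1% of all features) did not overlap between the groups, and the median log2 fold change was 0.04. The adjusted p of the genes named next lay at 0.325 or above in limma.

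Of 22 other genes of homologous recombination, 12 were below 0. Slx4, a scaffold for nucleases, was at -0.73. In end joining, 8 of 9 tested genes were above 0. Polq, the polymerase of the microhomology route, was at 145, 256 and 209 in LINE-1a vermis, against 137, 125 and 116 in dCas vermis (0.65), and Poll at -0.43. Of the 16 tested base excision and single-strand break genes, 11 were above 0. Fen1, the flap nuclease, was at -0.80, and the antisense gene Gm10143 covers 78.8% of its exons. The glycosylase Tdg was at 0.56.

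Ddb1, which serves a ubiquitin ligase, had the most negative value of the nucleotide excision list, where 10 of 20 were above 0. It was at 5963, 1555 and 4802 in LINE-1a vermis, against 7422, 7433 and 8196 in dCas vermis (log2 fold change -1.11), and LINE-1a 2 again lay far below the rest. Gtf2h1, a subunit of the transcription factor that opens DNA for repair, was at 0.36. In mismatch repair Msh3 was at 0.28 and Mlh3 at -0.18, with 2 of 6 above 0. Of the Fanconi anaemia genes Ube2t, the conjugating enzyme for Fancd2, was at 0.60, and Usp1, which removes that mark, at 0.45. In this list 8 of 13 tested genes were above 0. Among 17 other checkpoint genes 7 were above 0 and 10 below. Etaa1, an activator of Atr, was at 0.45 and Rpa1, which coats single-stranded DNA, at -0.66. Chromatin signalling at breaks had 19 other genes, 13 above 0 and 6 below. Kat5, an acetyltransferase that acts on Atm, was at -0.38, and Uimc1, which brings Brca1 to ubiquitin, at 0.38. The translesion polymerases Rev3l and Polh were at 0.51 and 0.50, with 5 of 7 above 0, and the topoisomerases Top1 and Top3b at 0.30 and 0.27, with 4 of 5 above 0.

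The p53 branch, which turns damage signals into transcription, had members on both sides of 0. Of 20 genes 11 were above and 9 below 0, with 0 called by limma. Trp53 itself was at 512, 393 and 437 in LINE-1a vermis, against 548, 497 and 521 in dCas vermis (log2 fold change -0.23 ± 0.16, SE; limma, adjusted p = 0.448). Mdm2, its target and inhibitor, was at 562, 609 and 690.1 in LINE-1a vermis, against 489, 475 and 521.5 in dCas vermis (0.32 ± 0.15; limma, adjusted p = 0.327). The cell cycle inhibitor Cdkn1a was at -0.14 ± 0.20 (limma, adjusted p = 0.716), with overlapping groups. Pmaip1, a killer protein of the Bcl2 family, had the smallest p of the branch, and Bbc3, another such protein, lay on the other side of 0. Pmaip1 was at 24.2, 9.68 and 16.6 in LINE-1a vermis, against 39.3, 32.4 and 78.7 in dCas vermis (-1.50). Bbc3, named here after its value was seen, was at 22.6, 66.9 and 49.1 in LINE-1a vermis, against 13.9, 16.2 and 30.7 in dCas vermis, which overlap (1.103). Trp53inp1 followed at 0.55, at 170 to 239.5 in LINE-1a vermis and 137 to 142 in dCas vermis.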

How the data were processed

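Per the labels, NEBNext Ultra II libraries were prepared from the total RNA of 6 vermes. The labels' strain names set the groups, LINE-1a and dCas, with 3 replicates each. No litter, day or batch is given for the replicates. The p-values weigh the difference between the groups against the spread between mice within them. The main fit has no term for sex, litter, day or batch. The authors deposited normalized counts, a signal equal to reads divided by a size factor for each library, and 100% of the values gave back whole reads within 0.001 reads. Per the submitters' processing notes, tools included SAMtools 1.9, STAR 2.5.3a, DESeq2, bedtools 2.27.1 and Bowtie2 2.2.9, with no roles given. Neither the counting program nor its use of strand is stated in these sources.

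The members and the lists of other genes were chosen with earlier results of these data known, so lists were given no test of their own. limma-trend 3.58.1 (R 4.3.3) was fitted on log2(normalized count + 1) for all 15800 features with a mean of at least 10 (530 of them repeat elements), as a two-sided test with p-values adjusted by Benjamini-Hochberg over all of them and called under 0.05. The whole reads were also tested with edgeR 4.0.16 (quasi-likelihood) and DESeq2 1.42.0, beside other pseudocounts, filters, scalings, weights, blocks and sets of libraries. The limma fit, but not edgeR or DESeq2, was tested on simulated reads of 15800 genes. It recovered 7.46% of 67 changes of 1.5-fold, 37.3% of 67 of 2-fold and 93.9% of 66 of 4-fold, with 8 false calls. Replicates differed beyond sampling noise (chi-square per degree of freedom 27.8 to 140). The rule for names gives every member at least once, with values in all libraries for H2afx, Atm, Nbn, Aptx, members that passed, members with no overlap and an unadjusted p under 0.05, and the 3 of highest level per kb. It adds the 2 genes of smallest p from each list of other genes, and Trp53, Mdm2 and Cdkn1a. Exonic lengths, overlaps and GC content come from GENCODE M21 on GRCm38. Promoters come from RefSeq on GRCm38.p6. The table of endogenous retrovirus loci was not used here. Some genes that the rule or the lists give are not reported here.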

Additional observations from a re-analysis of the deposited data

How the results depend on the processing

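The count of called members was 0 in limma with all 6 libraries and in every alternative with a test except array weights, where 1 passed (Aptx). Mdm2 passed there as well (adjusted p = 0.0481). The count over all features, 23, was 36 with equal library totals, 1220 with array weights, 142 in DESeq2 and 3 with sex as a covariate. It was 0 in the male libraries alone, where limma has 2391 features at an unadjusted p under 0.05 and LINE-1a is 1 library, assumed to vary like the dCas libraries. With 1 library left out it ran from 11 (without LINE-1a 3) to 40 (without dCas 1), and was 14 without dCas 2 and 15 without dCas 3, while the count of members stayed between 0 and 0. The median of the members was 0.15 with equal totals, a scaling that moves the median of all features by 0.12. With 1 library left out it ran from -0.0415 (without dCas 3) to 0.0434, and was -0.00736 without dCas 1. The deviations of same-numbered libraries from their group means had r = -0.21, 0.14 and -0.09 for replicates 1, 2 and 3. With 3 libraries per group these values cannot show whether the numbers are pairs, and the labels do not say. The replicate block called 24 features and 0 members.

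Of 36 members, 17 kept the sign of their log2 fold change in every alternative run for them (21, or 20 for H2afx, which has no value at a mean of at least 50), and the 19 that did not were reported at sizes of up to 0.31. Values of opposite sign were 0.0191 (Brca2), 0.105 (Palb2), 0.0224 (Lig1) and 0.0154 (Tdp1) with equal totals. With array weights they were -0.0016 (Rnf168), -0.000391 (Xrcc6), 0.13 (Tdp1), 0.0442 (Ogg1) and -0.25 (Fancd2). With sex as a covariate, and likewise in the male libraries alone, they were 0.0485 (Palb2), 0.0455 (Mdc1), -0.19 (Chek1), 0.13 (Tdp1) and -0.36 (Fancd2). They were 0.0118 (Palb2) in edgeR, -0.0175 (Parp2) in DESeq2, and 0.0122 (Palb2) and -0.033 (Prkdc) with the length and GC trend removed. With 1 library left out, the members that changed sign ran from -0.0485 to 0.192 (Mre11a), -0.0494 to 0.254 (Rad50), -0.353 to 0.0936 (Brca2), -0.15 to 0.15 (Palb2), -0.0465 to 0.0672 (Parp2), -0.15 to 0.39 (Chek1), -0.15 to 0.27 (Chek2), -0.235 to 0.0655 (Lig1), -0.22 to 0.0532 (Tdp1), -0.0557 to 0.152 (Xpa), -0.416 to 0.0364 (Xpc), -0.13 to 0.39 (Fancd2), -0.602 to 0.082 (Brca1), -0.26 to 0.58 (Ercc2) and -0.0284 to 0.0844 (Xrcc6). The causes were not tested. Bard1, Fancd2, Chek1 and H2afx had the fewest reads on average, at 0 to 79 reads a library, and Brca1 came next at 34 to 87.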
